A study of Mus musculus with 32 samples.

Results

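The 7 genes described here encode microglial proteins that modulate pain or restrain inflammation: the receptor gene Hcar2, the enzyme gene Hmox1, the growth factor genes Hbegf and Igf1, the interleukin 10 receptor subunit genes Il10ra and Il10rb, and the kinase gene Mapk14. They were named in advance of this description, with earlier results of these data known, and were found by gene symbol in both deposited count tables. All 7 were listed among the 13377 genes of the female table, and 6 among the 11999 genes of the male table, where Igf1 was not listed. RNA had been sequenced from mouse microglia sorted by fluorescence, in a study of how repopulated microglia of the spinal cord relate to pain that resolves.

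All 32 libraries were labelled day 14 and share 1 genotype label, Cx3Cr1-Cre;Rosa26-iDTR, in which a Cre recombinase under the Cx3cr1 promoter switches on a diphtheria toxin receptor after tamoxifen. The toxin then kills these cells until new microglia grow in. Libraries labelled with depletion are called repopulated here and those labelled without depletion resident, and each state was sampled with a fracture and without injury. Without fracture there were 4 resident and 3 repopulated female libraries, with fracture 4 of each state. The male numbers were 3 resident and 2 repopulated without fracture, and 5 resident and 7 repopulated with it. Sample descriptions call the non-depleted libraries Wt or WT, and the depleted ones Dt in females and iDTR in males, although the genotype label does not differ. Repopulation, exposure to the toxin and a possible difference in genotype therefore cannot be told apart. Female libraries came from an ultra-low input method of a company, and male libraries from SMART-Seq v4 and Nextera DNA Flex, so sex and library kit are the same split and each table was tested on its own. Separate animals are not stated for the libraries of a group, so p-values reflect the spread between libraries, part of which may be technical.

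Microglia are the resident macrophages of the spinal cord, and their signals to neurons can raise or lower pain. HCAR2 is a Gi-coupled receptor of niacin and of the ketone body beta-hydroxybutyrate, and haem oxygenase 1 cleaves haem to biliverdin, carbon monoxide and iron under the control of the factors NRF2 and BACH1. IL-10 binds a receptor of the subunits IL10RA and IL10RB, which signals through JAK1, TYK2 and STAT3 and lowers the output of inflammatory cytokines. IGF1 is a trophic factor, HB-EGF is a membrane-anchored ligand of the EGF receptor that metalloproteases release, and p38 alpha, the product of Mapk14, is a stress-activated kinase that drives cytokine production and has been studied in spinal microglia as a mediator of pain.

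The libraries held 16438827 to 18654165 estimated counts in females and 5722993 to 33697535 in males. The lowest total was that of male resident library 2 without fracture, and male repopulated libraries had 9644000 to 14914799. All 14 microglial markers were listed, and their summed level was 47700 to 58950 CPM (counts relative to the library total, scaled by TMM factors) in females and 53600 to 68890 CPM in males. In males without fracture this sum was 62800 to 65470 CPM in resident and 55600 to 57180 CPM in repopulated libraries, while with fracture (60700 to 68890 against 53600 to 64110 CPM) and in females the groups overlapped. No marker of neutrophils (0 of 6) or of T and NK cells (0 of 5) was listed in either table. Some markers of other cells moved with repopulation. The 3 listed of 6 B cell markers summed to 489 to 624.9 CPM in female and 429 to 543 CPM in male resident libraries, against 343 to 461 and 312 to 451 CPM in repopulated ones, and Cd79a and Ms4a1 were among those not listed. Astrocyte markers (5 of 6 in females, 3 of 6 in males) summed to a median of 116 CPM in male resident and 97.7 CPM in male repopulated libraries without fracture, where the groups were separate, and overlapped with fracture and in females. The listed endothelial markers, Pecam1 and Flt1 in females and Pecam1 in males, of 5 on the list, summed to 16.8 to 25.5 and 17.3 to 28.2 CPM in resident libraries, against 1.59 to 8.12 and 0.545 to 19.6 CPM in repopulated ones. Monocyte markers were few (3 of 7 in females, 2 of 7 in males, with Ccr2 and Ly6c2 not listed). Without fracture they summed to 4.71 to 35.1 and 1.5 to 11.7 CPM in resident and 36.2 to 53.3 and 30.7 to 32.2 CPM in repopulated libraries. With fracture, these sums were 4.11 to 12.5 and 1.74 to 93.9 CPM in resident and 11.3 to 19.1 and 3.75 to 34.1 CPM in repopulated libraries. Markers of border-associated macrophages (4 of 9 in females, 5 of 9 in males) had lower median sums in repopulated libraries, with overlapping ranges throughout. Female medians were 393 against 291 CPM (resident against repopulated) without fracture and 401 against 384 CPM with it. Male medians were 217 against 155 CPM and 212 against 163 CPM. The part of these cells, and of the depth that differed between male groups, in the results on repopulation was not tested. In RNA of sorted cells, fewer cells of a type and less RNA per cell cannot be told apart.

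The members spanned nearly the whole range of expression. Per kilobase of transcript, the scale on which genes can be compared, the mean level over the 15 female libraries was 256 ± 17.7 CPM per kb (SD) for Il10ra and 175 ± 33.1 for Il10rb. Hcar2 followed with 54.3 ± 21.3, Hmox1 with 33.5 ± 10.2 and Mapk14 with 27.5 ± 3.89 CPM per kb. Hbegf had 0.639 ± 0.449 and Igf1 0.311 ± 0.36 CPM per kb, which put them at the 9.59 and 2.93 percentiles of all listed genes, against 98.2 for Il10ra. Ranges over libraries overlapped among Hcar2, Hmox1 and Mapk14 and between Hbegf and Igf1, so the order within those groups was not clear of the spread, while Il10ra and Il10rb did not overlap. In the 17 male libraries the order was Il10rb (232 ± 13.8 CPM per kb), Il10ra (214 ± 25.7), Mapk14 (69.6 ± 5.51), Hcar2 (33.4 ± 19.2), Hmox1 (27.4 ± 6.53) and Hbegf (0.652 ± 0.491). There Il10rb and Il10ra overlapped, as did Mapk14 with Hcar2 and Hcar2 with Hmox1. These levels sum only listed transcripts. Mapk14-202, with 45.4% of the male Mapk14 counts, was not listed in females, so the female Mapk14 level may lack a part.

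Hcar2 was higher in repopulated than in resident microglia in both tables. The difference was the larger one in males, a contrast between tables that was not tested. The gene lies on the minus strand at chr5:123863570-123865499 (GRCm38, GENCODE M21, as for the genes below) and has 1 transcript there. Male resident libraries without fracture had 25.8, 16.3 and 18.4 CPM, and the repopulated ones 89.6 and 133 CPM. With fracture, male resident libraries had 35.8, 27.3, 42.6, 42.6 and 36.3 CPM, and the 7 repopulated ones 63.2 at the lowest, 85.6 at the median and 122 at the highest. Every male repopulated library lay above every male resident library, with or without fracture. The log2 fold change was 2.45 ± 0.25 (SE; 95% interval 1.93 to 2.97; edgeR adjusted p = 7.27e-06) without fracture, rank 4 by p among all male genes. It was 1.28 ± 0.16 with fracture (0.96 to 1.61; edgeR adjusted p = 9.45e-05; rank 15). Averaged over both injury states it was 1.87 ± 0.15 (edgeR adjusted p = 8.56e-08; rank 5). Without the shallow male resident library 2, the change without fracture was 2.35 (edgeR adjusted p = 7.74e-05). The sample names of the male fracture libraries fall into the ranges V64 to V69 and V99 to V110, whose meaning the labels do not give. Within the first range the change was 1.36 (edgeR adjusted p = 0.0512) and within the second 1.19 (edgeR adjusted p = 0.0175).

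In the female table, Hcar2 stood at 89.3, 52.4, 116 and 62.1 CPM in resident libraries without fracture and at 166, 99 and 146 CPM in repopulated ones. With fracture, the resident libraries had 79.5, 74, 56.3 and 76.4 CPM and the repopulated ones 146, 135, 93.6 and 180 CPM. The groups overlapped without fracture, through resident library 3, and not with fracture. Averaged over both injury states, Hcar2 rose by 0.87 ± 0.19 on the log2 scale (0.46 to 1.27; edgeR adjusted p = 0.0102). Taken singly, the differences of 0.78 ± 0.27 without fracture (edgeR adjusted p = 0.174) and 0.95 ± 0.25 with fracture (edgeR adjusted p = 0.0724) did not pass. The first passed without resident library 3 without fracture (1.01; edgeR adjusted p = 0.045). The second passed without that library (0.947; edgeR adjusted p = 0.04), without resident library 2 without fracture (edgeR adjusted p = 0.0412) and without repopulated library 3 with fracture (edgeR adjusted p = 0.0469). DESeq2 also called the second (adjusted p = 0.00377). Of 22 alternative fits, however, 21 left the first difference uncalled and 17 the second. On leaving out 1 library, edgeR's adjusted p reached 0.454 for the first and 0.19 for the second.

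Hmox1, at chr8:75093621-75100589 on the plus strand, was higher in repopulated microglia of both tables, though the male difference with fracture did not pass. Female resident libraries had 41, 32.6, 54.5 and 31.2 CPM without and 36.8, 42.3, 43.1 and 37.4 CPM with fracture. Female repopulated libraries had 68.3, 67.9 and 75 CPM without and 76.6, 63.3, 51.6 and 67.4 CPM with fracture. The groups did not overlap in either injury state, though repopulated library 3 with fracture lay below the highest resident library without fracture. Hmox1 rose by 0.82 ± 0.17 without fracture (0.45 to 1.19; edgeR adjusted p = 0.0219), by 0.70 ± 0.16 with fracture (0.36 to 1.04; edgeR adjusted p = 0.0336) and by 0.76 ± 0.12 averaged over both (edgeR adjusted p = 0.000897). The first call was lost, with edgeR adjusted p of 0.0535 to 0.0703, on leaving out resident library 2 or 4 or any repopulated library without fracture. The second was lost, with edgeR adjusted p of 0.0675 to 0.102, on leaving out any resident library or repopulated library 1, 2 or 4 with fracture, whereas the averaged rise passed without each library in turn.

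Male Hmox1 levels were 38, 25.2 and 34.9 CPM in resident and 47.4 and 65.9 CPM in repopulated libraries without fracture. With fracture they were 33.8, 34.2, 45.7, 43.1 and 39.5 CPM in resident libraries, and 37.7, 45.4 and 64.3 CPM at the lowest, median and highest in repopulated ones. The groups were separate without fracture and overlapped with it. Hmox1 rose by 0.78 ± 0.23 without fracture (0.31 to 1.25; edgeR adjusted p = 0.0347), and by 0.50 ± 0.13 averaged over both states (edgeR adjusted p = 0.0136). The difference with fracture was 0.23 ± 0.15 (-0.07 to 0.53; edgeR adjusted p = 0.505) and did not pass. The rise without fracture was lost on leaving out repopulated library 2 (0.523; edgeR adjusted p = 0.447), resident library 2 (edgeR adjusted p = 0.125) or resident library 3 (edgeR adjusted p = 0.0575), all without fracture. The averaged one was lost on leaving out the same repopulated library (0.376; edgeR adjusted p = 0.17). The rise without fracture was also lost with library totals as the only scaling and in a fit of only the compared groups.

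**Figure D1:**
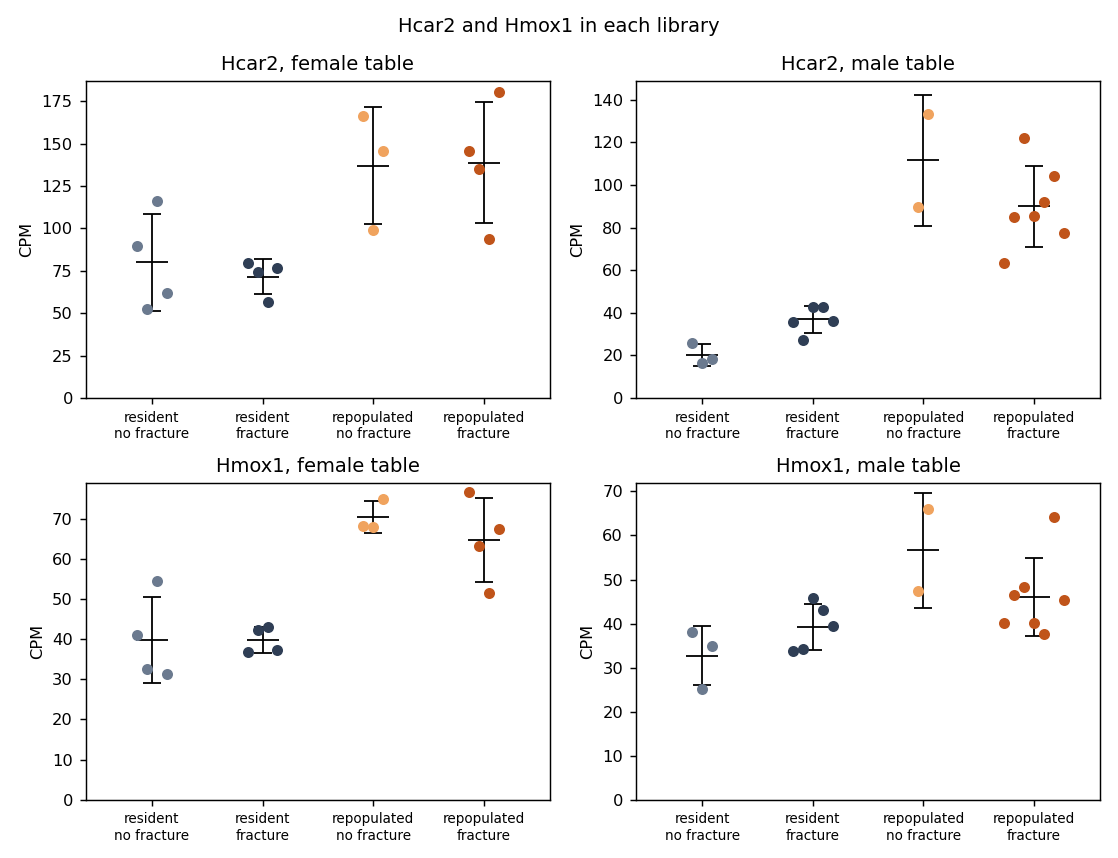
Hcar2 and Hmox1 levels (vertical axes, CPM from 0) in the 4 groups of each table (horizontal axes). Each point is 1 library, and bars are the mean ± SD. Male Hcar2 lies at 16.3 to 42.6 CPM in resident libraries and at 63.2 to 133 CPM in repopulated ones.

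Igf1, at chr10:87858265-87937042 on the plus strand, was a low-level gene of the female table that rose with repopulation. Its counts were 3, 11, 23 and 8 in resident libraries without fracture, and 20, 6, 0 and 1 with fracture. Repopulated libraries had 139, 39 and 99 counts without fracture and 78, 10, 70 and 56 with fracture. As CPM, the means were 0.624 ± 0.471 (SD, n = 4) and 0.358 ± 0.486 (n = 4) in resident, and 5.45 ± 3.21 (n = 3) and 3.14 ± 1.8 (n = 4) in repopulated libraries. The groups did not overlap without fracture, and with fracture repopulated library 2 lay within the resident range. Averaged over both injury states, Igf1 rose by 3.11 ± 0.66 on the log2 scale (1.70 to 4.52; edgeR adjusted p = 0.00859), the widest interval of the 3 called female members. The difference was 3.11 ± 0.95 without and 3.11 ± 0.92 with fracture, where edgeR's adjusted p was 0.111 and 0.107 and DESeq2's 0.0255 and 0.0162. All of these counts belong to 1 transcript, Igf1-202, of the 8 annotated in GENCODE M21. Since both tables list only transcripts with at least 10 counts in at least 8 of 15 female or 9 of 17 male libraries, a gene seen in few libraries can be missed, and Igf1 in males was not analysed here. In females every repopulated library reached 10 counts, but of the resident ones only those with 11, 23 and 20. Igf1 was thus listed largely through the group where it is high, and its listing and its rise rest on the same counts.

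Hbegf was close to the detection limit and its groups overlapped in all comparisons but 1. Female counts were 9 to 44 and 22 to 77 in resident libraries without and with fracture, and 1 to 34 and 1 to 30 in repopulated ones. Male counts were 21 to 65 and 6 to 63 in resident, and 7 to 11 and 4 to 26 in repopulated libraries. The exception was the male comparison without fracture, with 2.59, 3.53 and 1.38 CPM in resident and 0.939 and 0.636 CPM in repopulated libraries. The log2 difference there was -1.64 with an interval of -3.80 to 0.52 (edgeR adjusted p = 0.477), and with fracture it was -0.27 (-1.62 to 1.08). In females it was -0.39 (-2.39 to 1.60) without and -1.49 (-3.33 to 0.36) with fracture. These intervals hold both no change and changes of several fold, and a difference in Hbegf was not resolved. The toxin receptor of iDTR mice is a simian HB-EGF, and whether reads from that transgene were counted under Hbegf was not tested.

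**Figure D2:**
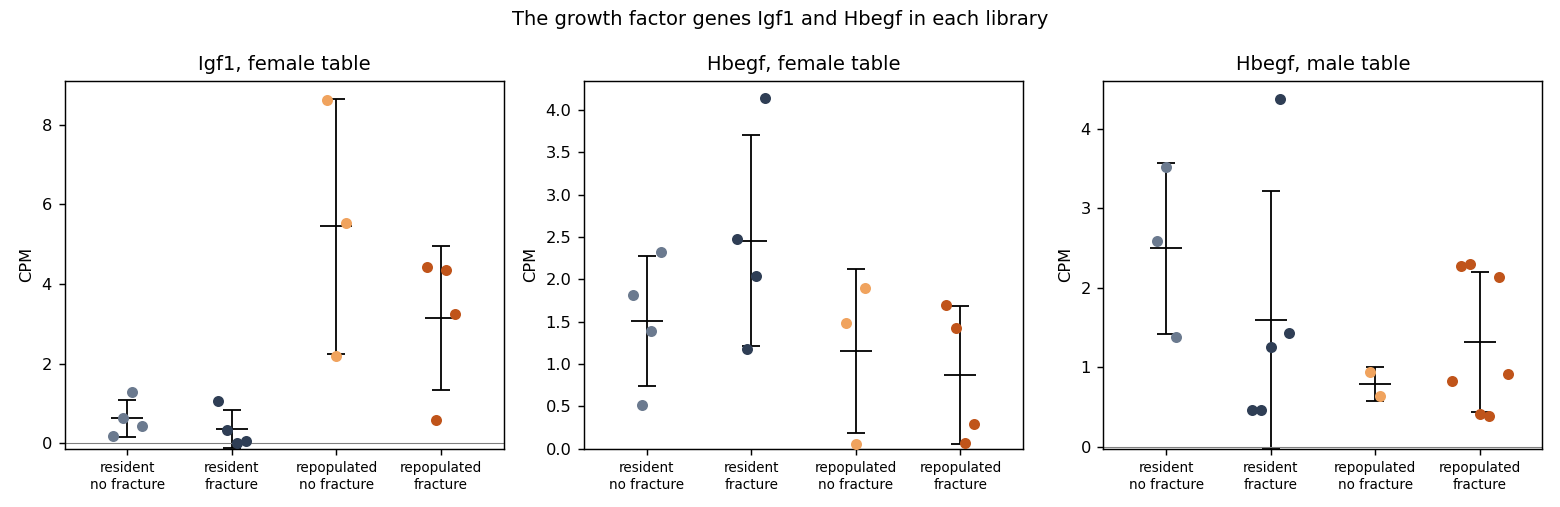
Igf1 in the female table and Hbegf in both tables (vertical axes, CPM) in the 4 groups (horizontal axes). Points are libraries and bars the mean ± SD. Female Igf1 averages 0.624 and 0.358 CPM in resident against 5.45 and 3.14 CPM in repopulated libraries, while the Hbegf groups spread widely between 0.0564 and 4.38 CPM.

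The IL-10 receptor subunit genes, Il10ra at chr9:45253837-45269149 on the minus and Il10rb at chr16:91406164-91425834 on the plus strand, were abundant and changed little. Il10ra, which binds the cytokine, had 616, 692 and 745 CPM in male resident and 974 and 819 CPM in male repopulated libraries without fracture. With fracture, the male resident libraries had 722, 672, 716, 614 and 718 CPM and the repopulated ones 712, 765 and 892 CPM at the lowest, median and highest. Only the groups without fracture were separate. Il10ra rose by 0.39 ± 0.10 in male repopulated microglia without fracture (0.17 to 0.61; edgeR adjusted p = 0.0226) and by 0.28 ± 0.06 averaged over both states (edgeR adjusted p = 0.00309), and did not pass with fracture (0.18 ± 0.07; edgeR adjusted p = 0.161). The rise without fracture was lost on leaving out repopulated library 1 (0.26; edgeR adjusted p = 0.288) or resident library 1 (0.32; edgeR adjusted p = 0.101) without fracture. The averaged rise was lost without the same repopulated library (0.218; edgeR adjusted p = 0.0523). The rise without fracture was also lost with library totals as the only scaling and in a fit of only the compared groups.

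In the female table Il10ra averaged 872 ± 57 and 843 ± 34 CPM in resident and 963 ± 8.12 and 917 ± 63.4 CPM in repopulated libraries without and with fracture. The averaged difference of 0.13 ± 0.04 did not pass (0.04 to 0.23; edgeR adjusted p = 0.0829). Il10rb, the subunit shared with other cytokine receptors of the IL-10 family, passed in no comparison. With fracture, the female libraries had 314, 319, 329 and 308 CPM in resident and 411, 403, 403 and 386 CPM in repopulated cells, which did not overlap, at a difference of 0.33 ± 0.14 (0.04 to 0.63; edgeR adjusted p = 0.285). A fit of those 8 libraries alone called it (0.32; edgeR adjusted p = 0.00488), and the other 21 of 22 alternatives did not. On leaving out 1 library, edgeR's adjusted p was 0.121 to 0.464. In males Il10rb stayed between 385 and 481 CPM, with differences of 0.20 ± 0.08 without and 0.03 ± 0.05 with fracture.

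Each receptor gene was nearly all 1 transcript. Il10ra-201 made up 98.7% of the listed Il10ra counts in females and 98.4% in males, and Il10rb-201 90.7% and 95.8%. In females the Il10ra-201 share was 98.3 ± 0.731% (SD, n = 8) in resident and 99.2 ± 0.569% (n = 7) in repopulated libraries, a difference of 0.963 percentage points within injury states (two-sided exact permutation test over libraries, adjusted p = 0.0392 over 3 tests). The Il10rb-201 share was 91.6 ± 1.3% and 89.8 ± 1.36%, a difference of -1.76 points (exact permutation adjusted p = 0.0392). Resident and repopulated ranges overlapped for both, and leaving out single libraries left 0 of these 2 calls for 11 libraries, 1 without resident library 1 or repopulated library 1 or 2 without fracture, and 2 without resident library 2 with fracture. The differences in males were -0.0354 and -0.131 points (exact permutation adjusted p = 0.937 for each).

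Mapk14, at chr17:28691329-28748406 on the plus strand, differed little between groups in either table. Female means were 81.2 ± 10.4 and 86 ± 18.9 CPM in resident, and 73.7 ± 8.79 and 79.7 ± 12.7 CPM in repopulated libraries without and with fracture. Male means were 239 ± 14.6 and 245 ± 18.1 CPM, against 215 ± 10.2 and 227 ± 18 CPM. The log2 differences were -0.14 (-0.49 to 0.21) and -0.11 (-0.43 to 0.21) in females and -0.15 (-0.38 to 0.07) and -0.11 (-0.25 to 0.03) in males, and none passed. With library totals as the only scaling, which moves the median of all male genes to -0.0879, the male averaged difference of -0.13 became -0.201 and passed (edgeR adjusted p = 0.0405).

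**Figure D3:**
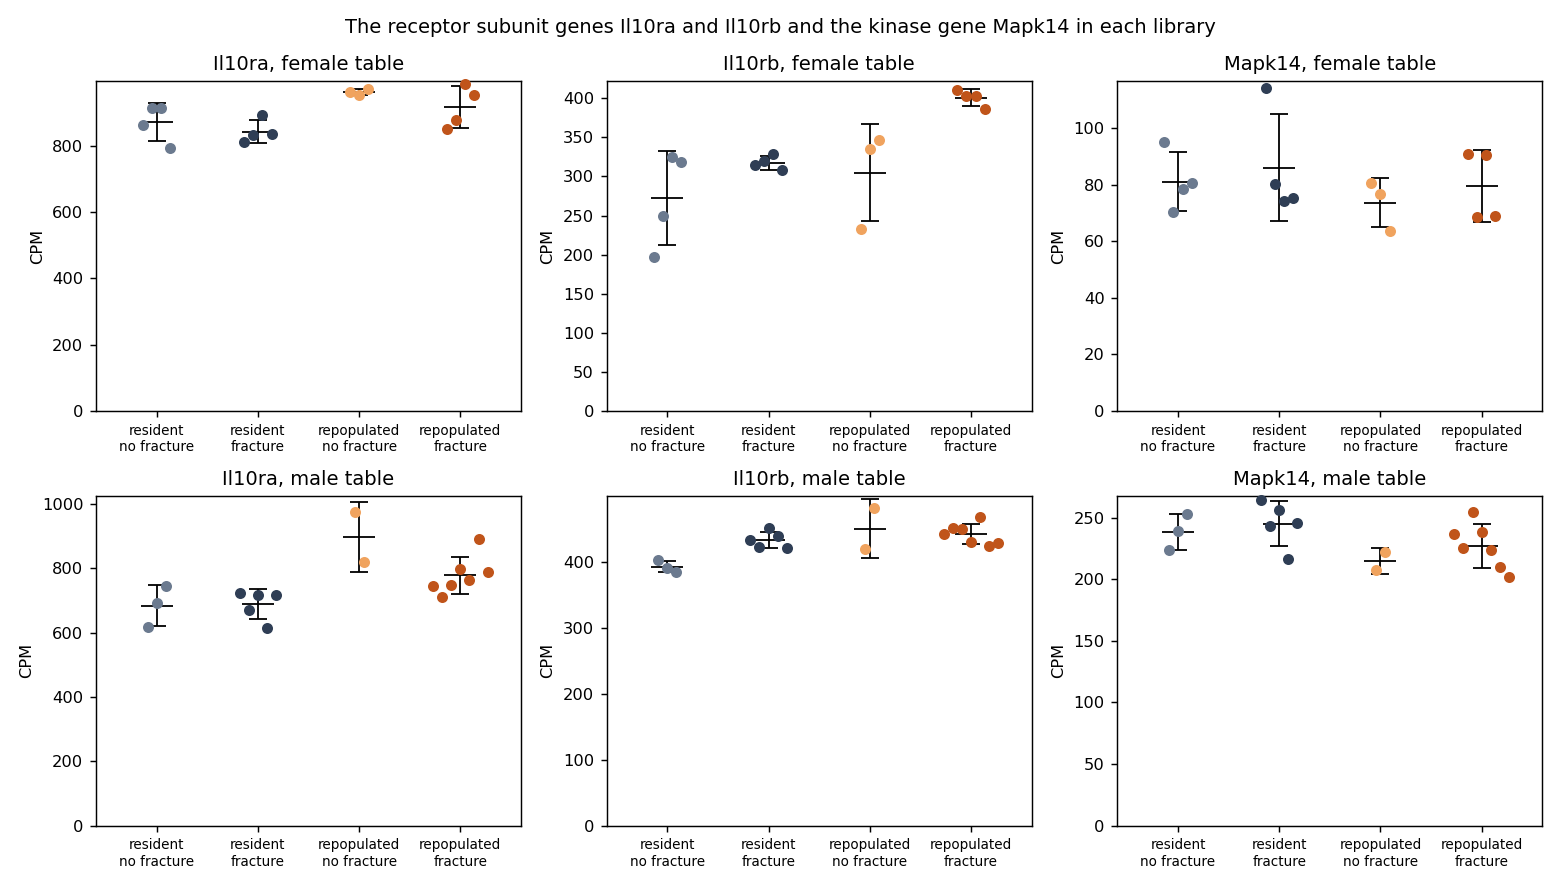
Il10ra, Il10rb and Mapk14 (vertical axes, CPM from 0) in the 4 groups of the female (upper) and male (lower) tables. Points are libraries and bars the mean ± SD. The groups lie close together beside their level, as for Mapk14 with male means between 215 and 245 CPM.

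The tables listed different Mapk14 transcripts. In the female table Mapk14-203 took 91.3% of the listed counts and Mapk14-201 4.23%, and Mapk14-202 was not listed. In the male table Mapk14-202 took 45.4%, Mapk14-203 42.4% and Mapk14-201 11%. The leading transcript's share did not differ between resident and repopulated libraries by more than their spread: it was 91.1 ± 3.17% and 91.9 ± 2.67% for Mapk14-203 in females (exact permutation adjusted p = 0.496) and 44.7 ± 5.56% and 45 ± 7.01% for Mapk14-202 in males (exact permutation adjusted p = 0.937). These shares are the counting program's division of reads among transcripts that share most of their sequence, and library kit and sex cannot be told apart in them.

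Mapk14-201 carries another exon 9 than Mapk14-202 and Mapk14-203. Both versions of this exon are 80 bases long, with 39 identical and 41 differing positions, so they are sequence by which reads can tell Mapk14-201 from the other two. They are shown 5′ to 3′ on the plus strand of GRCm38, from the GENCODE M21 transcripts, with capitals at the positions where they differ. The Mapk14-201 exon lies at chr17:28740680-28740759, downstream of the other at chr17:28737011-28737090.
Mapk14-201: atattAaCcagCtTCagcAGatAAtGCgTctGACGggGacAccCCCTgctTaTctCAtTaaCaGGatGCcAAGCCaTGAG
Mapk14-202 and Mapk14-203: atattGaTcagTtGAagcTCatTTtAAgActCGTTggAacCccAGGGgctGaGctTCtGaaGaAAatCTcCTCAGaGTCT

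Mapk14-202 and Mapk14-203 also begin at different sites. The RefSeq windows of 250 bases before these starts (GRCm38.p6, plus strand) are shown because these 2 transcripts lead the male table, with capitals at the GC box letters GGGCGG or CCGCCC, searched on both strands. The first, chr17:28691092-28691341, precedes Mapk14-202, and its last bases overlap the start of Mapk14-201. It has 70.4% G and C, 30 CG dinucleotides and 1 GC box match. The second, chr17:28692318-28692567, precedes Mapk14-203 and has 48.4% G and C, 14 CG dinucleotides and no match. Of 32851 such windows of mouse genes, 32.7% held a match, and the median number of CG dinucleotides was 6. A match is a description of the letters and not evidence of binding. Such windows were at hand for 2 of the 7 members.
Before Mapk14-202: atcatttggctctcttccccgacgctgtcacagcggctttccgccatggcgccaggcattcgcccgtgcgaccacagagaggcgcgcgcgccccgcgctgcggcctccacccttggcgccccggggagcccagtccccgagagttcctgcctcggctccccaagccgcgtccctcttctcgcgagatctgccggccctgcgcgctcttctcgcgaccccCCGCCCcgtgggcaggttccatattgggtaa
Before Mapk14-203: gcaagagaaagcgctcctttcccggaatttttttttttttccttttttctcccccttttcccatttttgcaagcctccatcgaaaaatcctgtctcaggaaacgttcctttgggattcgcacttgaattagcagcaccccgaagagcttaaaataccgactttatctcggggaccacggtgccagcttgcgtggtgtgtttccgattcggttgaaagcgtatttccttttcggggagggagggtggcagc

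**Figure D4:**
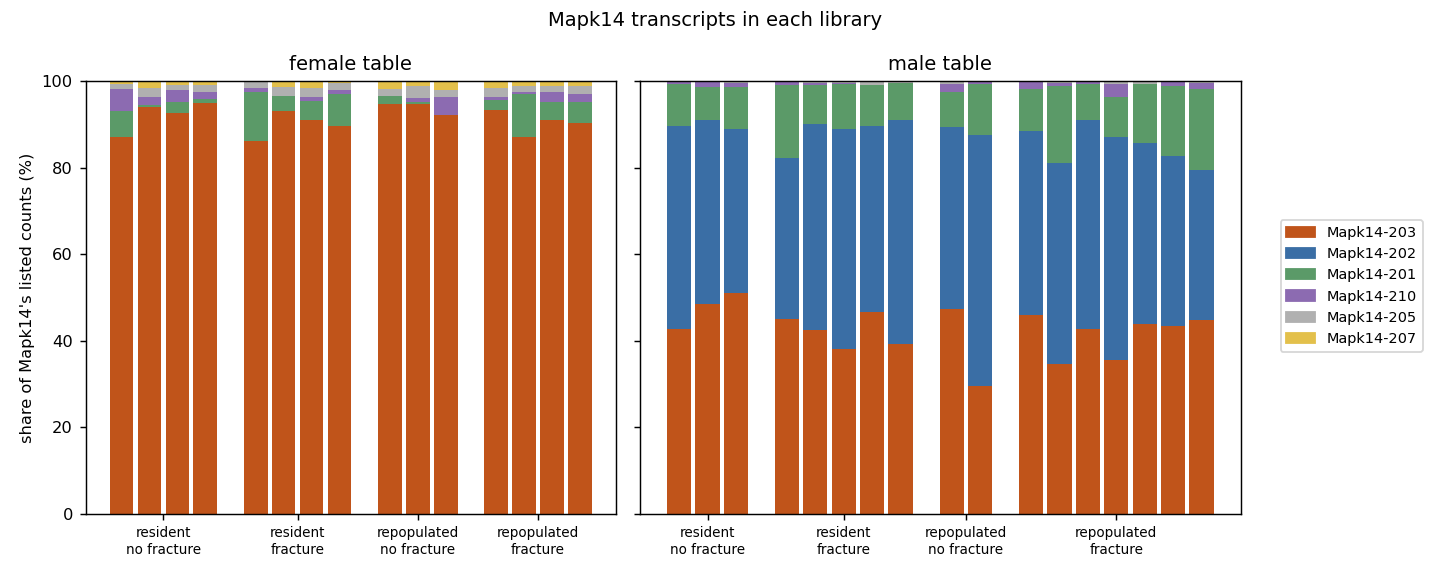
Share of each transcript in the listed Mapk14 counts (vertical axis, percent), with 1 bar for each library, in the 4 groups of the female and male tables. Mapk14-203 takes 86.2 to 95% in every female library, while Mapk14-202 takes 34.6 to 58.1% and Mapk14-203 29.5 to 51.1% in the male ones.

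Counted over the members, repopulation called 1 of 7 female genes without fracture (Hmox1), where 2.53% of all genes were called, and 1 of 7 with fracture (Hmox1; 2.35% of all genes). Averaged over both states, 3 of 7 were called (Hmox1, Igf1 and Hcar2; 8.52% of all genes). Of these, Igf1 was listed largely through its high repopulated libraries. In males 3 of 6 were called without fracture (Hmox1, Il10ra and Hcar2; 7.42% of all genes), 1 of 6 with fracture (Hcar2; 4.91%), and 3 of 6 averaged over both (Hmox1, Il10ra and Hcar2; 12.8%). Every call was higher in repopulated cells. The members' median log2 change in the averaged comparison was 0.25 in females and 0.20 in males, beside -0.015 and -0.019 over all genes. In the male comparison without fracture, none of the 6 members overlapped between the 2 repopulated and 3 resident libraries, although 3 of them were not called. Of all male genes, 35.4% did not overlap there, so separate groups were common in that comparison.

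**Figure D5:**
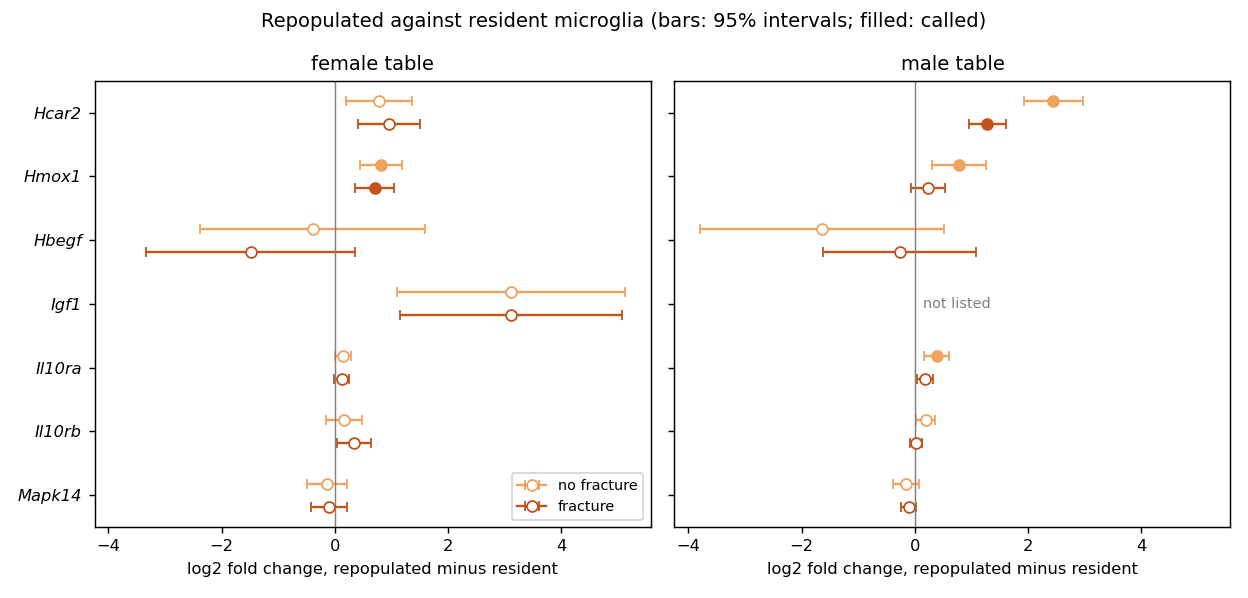
Log2 fold change of repopulated against resident microglia (horizontal axis) for each member (vertical axis), without and with fracture, in each table. Bars are 95% intervals and filled points are called genes. Male Hcar2 lies farthest from 0 of the called genes (2.45 and 1.28), and the Hbegf and Igf1 intervals are the widest.

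Fracture called no member. In resident microglia 0 of 7 female members passed edgeR's test (0% of all genes; 0 members at an unadjusted p below 0.05 and 0 by DESeq2). In repopulated microglia 0 of 7 did (0% of all genes; 1 member at an unadjusted p below 0.05, Il10rb, and 0 by DESeq2). The difference between the female repopulation effects with and without fracture called 0 of 7 (0% of all genes; 0 members at an unadjusted p below 0.05 and 0 by DESeq2). In males edgeR called 0 of 6 members for fracture in resident microglia (0.00833% of all genes; 2 members, Hcar2 and Il10rb, at an unadjusted p below 0.05 and 1 by DESeq2). It called 0 of 6 for fracture in repopulated microglia (0.00833% of all genes; 1 member, Il10ra, at an unadjusted p below 0.05), and 0 of 6 for the difference between the repopulation effects (0.00833% of all genes; 1 member, Hcar2, at an unadjusted p below 0.05). In each of these last 2 comparisons DESeq2 gave an adjusted p to only 3 of the 6 members, Il10ra, Il10rb and Mapk14, and called 0 of those 3. It gave none to Hcar2, Hmox1 or Hbegf. Of all female genes, 4.93%, 10.5% and 3.69% had an unadjusted edgeR p below 0.05 in these comparisons, in the order given. Of all male genes, it was 4.26%, 8.29% and 7.38%. The share of all genes called by DESeq2 is not given here.

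By adjusted p, female Il10rb in repopulated cells came nearest to a call for fracture (0.39 ± 0.15; edgeR adjusted p = 0.419). By unadjusted p it was male Hcar2 in resident cells. Its 3 resident libraries without fracture, at 16.3 to 25.8 CPM, lay below the 5 with fracture, at 27.3 to 42.6 CPM, a log2 difference of 0.85 ± 0.20 (0.43 to 1.28; unadjusted p = 0.00049, rank 6; edgeR adjusted p = 0.744). DESeq2 called this difference (adjusted p = 0.0476). In repopulated libraries the difference was -0.31 (-0.76 to 0.14). The repopulation effect was thus 1.16 lower with fracture than without on the log2 scale, written -1.16 ± 0.30 (-1.78 to -0.55), and this difference did not pass (edgeR adjusted p = 0.342). Without repopulated library 2 without fracture it was -0.85 (edgeR adjusted p = 0.953). For female Hcar2 the same difference was 0.18 with an interval of -0.63 to 0.98.

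The pathways around the members were followed in 6 lists of 122 gene symbols, of which 97 were listed in each table. Nrd1 and Nrdc, both in the EGF family list, are symbols of the same gene. Repopulation called 6 of the 97 in females without fracture (3 higher, 3 lower), 6 with fracture (2 higher, 4 lower) and 15 averaged over both states (7 higher, 8 lower). In males it called 19 (15 higher, 4 lower), 11 (8 higher, 3 lower) and 23 (16 higher, 7 lower). Of all genes, the same comparisons called 2.53%, 2.35% and 8.52% in females, and 7.42%, 4.91% and 12.8% in males. Fracture called none of the 97 in resident or repopulated cells of either table by edgeR's test. At an unadjusted p below 0.05 there were 6 and 11 of them in females (6.19% and 11.3%, beside 4.93% and 10.5% of all genes). In males there were 0 and 21 (0% and 21.6%, beside 4.26% and 8.29% of all genes). Among genes to which it gave an adjusted p, DESeq2 called 0 and 2 of them in females and 0 and 3 in males. Counts and medians of single lists below are for the averaged comparison, in which 8.52% of female and 12.8% of male genes were called.

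Among the genes of haem breakdown and NRF2, 2 of 21 rose and 2 fell in females (median -0.01), and 2 rose and 1 fell in males (median -0.03). The risers in both were the ferritin genes Fth1 and Ftl1, which encode the chains of the cell's iron store. Without fracture Ftl1 went from 1990 ± 373 to 2880 ± 255 CPM in females (log2 0.53 ± 0.12; edgeR adjusted p = 0.0275) and from 2770 ± 300 to 4950 ± 797 CPM in males (0.83 ± 0.11; edgeR adjusted p = 5e-05). Fth1 rose by 0.54 ± 0.14 in females and by 0.93 ± 0.15 in males without fracture. With fracture neither passed in females, where Ftl1 differed by 0.37 ± 0.11 (edgeR adjusted p = 0.0961) and Fth1 by 0.44 ± 0.13 (edgeR adjusted p = 0.0917). Reads of ferritin genes can be shared with processed copies, which makes their levels uncertain. Slc40a1, the iron exporter ferroportin, fell in both tables and injury states, by 0.79 ± 0.13 and 0.60 ± 0.12 in females and by 0.85 ± 0.18 and 0.58 ± 0.12 in males without and with fracture. Lrp1, a scavenger receptor that takes up haem bound to haemopexin, fell in females with fracture by 0.37 ± 0.08. The regulators Nfe2l2 and Bach1 and the biliverdin reductases Blvra and Blvrb did not pass in either table. Without fracture, Nfe2l2 differed by 0.18 ± 0.09 in females and 0.12 ± 0.10 in males.

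In the HCAR2 list of G proteins, arrestins, adenylyl cyclases and monocarboxylate transporters, 1 of 13 genes rose in females (median -0.02), and 2 rose and 2 fell in males (median -0.12). Adcy7, an adenylyl cyclase of myeloid cells, rose in both (0.23 ± 0.07 and 0.48 ± 0.11). Male Slc16a3, the lactate exporter MCT4, rose by 0.27 ± 0.08, while the G protein genes Gnb2 and Gnai3 fell by 0.29 ± 0.08 and 0.27 ± 0.09. Hcar1, the lactate receptor gene next in the family, was not listed in either table.

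In the IGF list, 1 of 11 genes rose and 1 fell in females (median 0.06), and 2 rose and 1 fell in males (median -0.18). Igf1r, the receptor of IGF1, fell by 1.12 ± 0.23 in females (edgeR adjusted p = 0.00702) and by 1.59 ± 0.28 in males (edgeR adjusted p = 0.000617). In males without fracture it went from 11.3 ± 2.78 to 2.89 ± 0.493 CPM. Irs2, an adaptor of the insulin and IGF1 receptors, rose by 0.62 ± 0.13 and 0.58 ± 0.10. The binding protein gene Igfbp4 rose by 0.75 ± 0.11 in males.

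In the EGF family list, 3 of 14 genes rose and 1 fell in females (median 0.07), and 4 of 13 rose and 1 fell in males (median 0.10). Adam9, a membrane metalloprotease that can shed HB-EGF, rose by 0.48 ± 0.08 and 0.89 ± 0.15, from 52.1 ± 9.61 to 86.7 ± 21.1 CPM in males with fracture. Cd9, a tetraspanin that binds the HB-EGF precursor, rose by 0.34 ± 0.08 and 0.37 ± 0.07. Male Adam17, the main sheddase of EGF family ligands, rose by 0.35 ± 0.07. The low-level gene Rhbdf1 fell in females by 1.60 ± 0.36, and male Errfi1, a feedback inhibitor of the EGF receptor, fell by 0.45 ± 0.15. Whether Rhbdf1 was listed largely through its higher resident libraries was not tested. The receptor genes Egfr, Erbb2, Erbb3 and Erbb4 were not listed in either table.

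In the IL-10 list, none of 13 genes rose and 2 fell in females (median -0.03), and 5 of 14 rose and 1 fell in males (median 0.14). In females the fallers were Il6st, the shared signal transducer gp130 of IL-6 type cytokines (fell by 0.42 ± 0.06; edgeR adjusted p = 0.000605), and Il4ra (fell by 0.30 ± 0.07). In males Il1rn, the interleukin 1 receptor antagonist, rose by 2.74 ± 0.46 (edgeR adjusted p = 0.000301), from 2.05 ± 1.67 to 22.3 ± 1.55 CPM without fracture. At this low resident level, Il1rn may have been listed largely through its high repopulated libraries, as Igf1 was in females. That was not tested, and its listing and its rise may rest on the same counts. Male Socs1, a feedback inhibitor that interferons also induce, rose by 0.85 ± 0.20. Male Il6ra fell by 0.25 ± 0.08. Il10 itself was not listed in either table. The transducers Jak1, Tyk2 and Stat3 did not pass in either table, with Stat3 differing by 0.00 ± 0.11 in females and 0.18 ± 0.14 in males without fracture.

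In the p38 list, none of 25 genes rose and 2 fell in females (median 0), and 1 rose and 1 fell in males (median 0.04). Map2k3, a kinase that activates p38, fell in females by 0.29 ± 0.08, and Mef2c, a transcription factor that p38 phosphorylates, fell by 0.19 ± 0.04 in females and 0.20 ± 0.06 in males. Mapkapk2, the kinase downstream of p38 alpha, rose in males by 0.38 ± 0.10. Of the other p38 genes, Mapk11 and Mapk13 were not listed in either table.

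For the members called in a table, up to 3 genes whose log2 CPM followed them most closely over its libraries are given as a description. Female Hcar2 was followed by Trpm2 (Pearson r = 0.93), Lyz2 (0.91) and C1qb (0.90) over 15 libraries, and male Hcar2 by Ctsh (0.97), Ccl12 (0.96) and P2rx4 (0.96) over 17 libraries. Female Hmox1 was followed by Zmynd15 (0.95), Ctsh (0.95) and Apoe (0.94), and male Hmox1 by Tpi1 (0.87), Spp1 (0.86) and Rspo1 (0.86). Igf1 was followed by Tpcn2 (0.88), Cox7a2l (0.88) and Stk11ip (0.86), and male Il10ra by Sema4d (0.92) and Clcn7 (0.92). These points share their libraries, their depth and the step between resident and repopulated groups.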

How the data were processed

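The authors deposited whole-number estimated counts of transcripts, 1 table for each sex. STAR 2.7.6a, RSEM 1.3.1 and cutadapt 3.4 were among their tools, with build GRCm38, per the submitters' processing notes; the annotation release is not given in the sources used here. Counts were summed per gene identifier. Each table was fitted as 4 groups (edgeR 4.0.16, R 4.3.3) with filterByExpr, TMM factors and the robust quasi-likelihood test, adjusted by Benjamini-Hochberg over all genes and called below 0.05. Standard errors are of Wald type. DESeq2 1.42.0, scaling, filters, a replicate block, other sets of libraries and leaving out each library were alternatives. The code was tested on simulated counts. Lengths and exons came from GENCODE M21. Transcript shares were compared by exact permutation within injury states. No deposited count column was without a sample.

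Members and gene lists were chosen with earlier results of these data known. Named are all members, up to 3 called genes per list, direction and comparison by smallest p, and, for called members, the 3 genes of highest Pearson r of log2 CPM (prior count 2) with at least 5 CPM on average. Some genes these rules name are not reported here. Listed genes that did not pass, such as Nfe2l2 and Stat3, are named for their role, chosen after their values were seen.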

Additional observations from a re-analysis of the deposited data

Results flagged for a closer look

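In groups of 4 to 10 libraries, the library farthest from the rest was set against Dixon's 95% critical value. Of 33 such groups of the members, 3 passed, and chance passes about 1 in 20. Hmox1 in male repopulated library 6 with fracture stood at 64.27 CPM, while the other 6 libraries of that group had 37.7 to 48.28 CPM. Mapk14 in female resident library 1 with fracture stood at 114.2 CPM, above the 74.27 to 80.3 CPM of the other 3. Hbegf in male resident library 4 with fracture stood at 4.382 CPM, above the 0.4584 to 1.431 CPM of the other 4 libraries. All 3 stand above the other libraries of their group.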

How the results depend on the processing

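Over the alternatives, 78 comparisons of single members gave 1785 values with an adjusted p, of which 1693 kept their direction and their side of the threshold, 27 lost and 11 gained a call, none of the calls reversed, and 54 changed sign without a call on either side. The averaged comparisons of both tables kept their counts of called members within 1.5 times. The cause of the following changes was not tested. DESeq2 called 2 and 3 female members without and with fracture, in place of 1 and 1, and 1 male member for fracture in resident cells in place of 0. A fit of only the compared groups called 0 and 3 female members, and 1 male member (Hcar2) without fracture in place of 3, with fewer libraries behind the spread. Library totals as the only scaling called 1 male member without fracture (Hcar2), and moved the median of all genes to -0.106 in females and -0.12 in males without fracture. The libraries V64 to V69 alone called 0 male members with fracture in place of 1. Leaving out 1 library gave 0 to 2 female members called without fracture, 0 to 2 with fracture, and 0 to 2 of the female transcript shares. Same-numbered libraries were not more alike than others. Their deviations correlated at -0.571 to 0.44 in females (median -0.031) and -0.0911 to 0.0902 in males (median -0.00992). Differently numbered libraries had -0.464 to 0.552 (median 0.0199) and -0.151 to 0.178 (median 0.00137). Of the libraries, 5 of 15 and 3 of 17 correlated best with one of their own number. Whether the numbers mark pairs was not tested further. With a replicate block, 0 and 0 female members were called without and with fracture. Counts of Hbegf and Igf1 were 0 to 139 a library, and the part of depth in their wide intervals was not tested. The share of all genes called, set beside the members' counts, also rests on single libraries. In place of 338 female genes without fracture, 51 to 612 were called on leaving out 1 library, and each of the 7 compared libraries moved the count by over 1.5 times. In place of 315 with fracture it was 106 to 488, moved so far by each compared library but repopulated library 3, and by resident library 2 without fracture. In males repopulated library 2 without fracture alone did so, from 890 to 414 without fracture and from 1538 to 937 averaged. Over the alternatives other than leaving out 1 library, 0 to 676 of all female genes were called without and 184 to 694 with fracture. Of all male genes, 652 to 1169 were called without and 39 to 843 with fracture. Counts of called members thus moved in fits where the calls of all genes moved too, and the share in each single fit is not given here.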
